A study of Mus musculus with 12 samples.

Results

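The 9 complement genes described here, components of the cascade that marks and lyses cells, are C1qa, C1qb, C1qc, C4b, C2, C3, Cfb, C6 and C7, out of 24062 gene symbols counted in wounds of diabetic mice. They were picked with measured values in view, since C7 had one of the smallest p values in pre-MCS-01 against blank, where it ranked 2 of 16267 genes tested. C7 is therefore given without a p in every comparison that contains the pre-MCS-01 wounds, and no member is given a p in pre-MCS-01 against blank. All 9 passed the filter on low counts.

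Complement is a set of secreted proteins that tag microbes and damaged cells. The classical arm starts when C1q binds immune complexes or dying cells and the C1 proteases cut C4 and C2. The alternative arm amplifies the reaction through factor B. Both arms cleave C3, and the terminal proteins C5 to C9 then assemble into a pore in the target membrane. Most of these proteins in blood come from the liver, but skin makes some of its own: C1q is known as a product of macrophages and dendritic cells, and fibroblasts, keratinocytes and endothelial cells make other components.

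The study asked what a mast cell stabilizer, known only by the code name MCS-01, does to wounds of the back skin of C57BL/6 mice made diabetic with streptozotocin, a toxin of the insulin-producing beta cells. There were 4 groups of 3 mice, 1 library per mouse: pre-MCS-01, post-MCS-01, DSCG (the usual abbreviation of disodium cromoglycate, a mast cell stabilizer in clinical use) and blank. All groups share the strain, the diabetes and the wound, and no group of non-diabetic mice was analysed here. The labels do not say what pre and post refer to, and give no dose, day, age or sex.

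Libraries held 3835042 gene counts (blank replicate 3) to 50461867 (blank replicate 1), and the lowest total after blank replicate 3 was 37702643 (post-MCS-01 replicate 1). Long transcripts were under-represented in 3 libraries, namely replicate 2 of pre-MCS-01, replicate 2 of DSCG and replicate 3 of blank: across genes, the rank correlation between exon length and the level relative to the other libraries was -0.385, -0.330 and -0.320, against -0.0559 to 0.337 in the other 9. Markers of epidermal keratinocytes (16794 to 59510.4 CPM summed) and fibroblasts were present in all libraries, as skin should have them, and so were skeletal muscle markers (1967 to 6480.4 CPM summed). Mast cell markers, the cells that the stabilizers act on, overlapped in all groups, with sums of 144.8 to 191.1 CPM in pre-MCS-01, 102.9 to 260.9 CPM in post-MCS-01, 136.3 to 252.8 CPM in DSCG and 173.2 to 216.9 CPM in blank wounds. Hair follicle markers differed widely, with summed levels of 12487 to 30432 CPM (counts scaled to a common library size) in pre-MCS-01, 29.9 to 84.6 CPM in post-MCS-01, 1989.7 to 40670.5 CPM in DSCG and 6668 to 19899 CPM in blank wounds. Hepatocyte markers summed to 0.720 to 2.20 CPM in every library, with Fgb at 0 in all of them.

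The promoters of C7, C1qb and C1qc are shown because C7 chose the set and because the C1q genes followed one another across libraries. Sequences are from RefSeq on GRCm38.p6, in the direction of transcription, from 250 bases before to 50 bases after the start of each gene, which is on the minus strand in each case. These RefSeq starts differ from the gene limits printed below, which come from another annotation. Distances of motifs refer to the RefSeq starts. Of the 9 genes, 5 matched the promoter table used here (C1qb, C1qc, C3, C6 and C7).
C7, chr15:5063724-5064023: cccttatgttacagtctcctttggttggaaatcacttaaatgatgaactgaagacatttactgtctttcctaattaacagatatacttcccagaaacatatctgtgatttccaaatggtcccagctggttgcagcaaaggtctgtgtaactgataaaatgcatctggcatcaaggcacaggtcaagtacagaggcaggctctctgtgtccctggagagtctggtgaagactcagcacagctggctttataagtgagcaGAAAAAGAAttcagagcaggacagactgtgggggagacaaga
C1qb, chr4:136886151-136886450: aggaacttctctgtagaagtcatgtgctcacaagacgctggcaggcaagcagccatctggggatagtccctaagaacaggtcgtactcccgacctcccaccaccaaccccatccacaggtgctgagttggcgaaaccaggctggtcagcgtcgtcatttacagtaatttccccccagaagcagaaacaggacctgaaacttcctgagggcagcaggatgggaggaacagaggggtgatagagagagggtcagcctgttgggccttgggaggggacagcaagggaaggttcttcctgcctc
C1qc, chr4:136892865-136893164: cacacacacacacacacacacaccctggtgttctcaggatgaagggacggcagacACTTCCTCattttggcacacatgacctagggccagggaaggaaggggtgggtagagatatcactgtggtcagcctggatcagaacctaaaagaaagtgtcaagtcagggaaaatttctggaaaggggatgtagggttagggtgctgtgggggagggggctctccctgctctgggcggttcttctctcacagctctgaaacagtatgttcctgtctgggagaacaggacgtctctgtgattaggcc
Capitals mark exact matches on either strand to the motifs searched. In C7 they mark the interferon-sensitive letters GAAANNGAA, which begin 8 bases past the start and are found in 8.56% of 32851 promoters. In C1qc they mark the letters GAGGAAGT of PU.1, a myeloid transcription factor, on the opposite strand, beginning 195 bases before the start, and 3.20% of promoters hold them. The NF-kB letters GGGACTTTC or GGGAATTTC (0.612% of promoters), the STAT letters TTCCNGGAA (1.15%) and the C/EBP letters TTGCGCAA (0.183%) were not in these windows of the 5 genes. None of these motifs overlapped another in the member promoters. A match is a stretch of letters and was not tested as a binding site.

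C7 encodes a late component that lets the growing membrane attack complex enter the lipid bilayer (chromosome 15, 4988762 to 5063740, minus strand, GRCm38). It had 6.64, 4.01 and 7.62 CPM in pre-MCS-01 wounds, 38.4, 26.6 and 72.8 CPM in post-MCS-01 wounds, 17.3, 12.7 and 26.6 CPM in DSCG wounds and 19.6, 50.5 and 29.1 CPM in blank wounds. The pre-MCS-01 libraries were the lowest 3 of 12 and did not overlap any other group, while DSCG, blank and post-MCS-01 overlapped each other. From these values the log2 fold change (edgeR, one model of all 12 libraries) was -2.91 ± 0.48 (SE) in pre-MCS-01 against post-MCS-01, -1.63 ± 0.46 against DSCG and -2.44 ± 0.47 against blank. These correspond to levels 7.54-fold, 3.10-fold and 5.44-fold lower in pre-MCS-01, and the 3 comparisons share the pre-MCS-01 libraries. Without the 3 libraries short of long transcripts the values were -2.72, -1.64 and -2.32.

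Among the groups that did not choose it, C7 was highest in post-MCS-01 wounds, at 46.0 ± 24.0 CPM (SD, n = 3), against 18.9 ± 7.09 CPM in DSCG and 33.1 ± 15.8 CPM in blank wounds. The log2 fold change was 1.28 ± 0.45 in post-MCS-01 against DSCG, with a 95% interval of 0.30 to 2.27, and missed the threshold of an adjusted p under 0.05 (adjusted p = 0.274, edgeR quasi-likelihood test with Benjamini-Hochberg adjustment over 16267 genes). Post-MCS-01 against blank gave 0.47 ± 0.44 (adjusted p = 0.853) and DSCG against blank -0.81 ± 0.45 (adjusted p = 0.999). The post-MCS-01 value against blank rests on replicate 3, without which it was -0.03.

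C6 precedes C7 in the same complex and lies near it on chromosome 15 (4727175 to 4814967, plus strand). Its levels were 7.83, 5.65 and 6.21 CPM in pre-MCS-01 wounds, 10.3, 13.4 and 14.4 CPM in post-MCS-01 wounds, 15.5, 14.6 and 8.07 CPM in DSCG wounds and 6.84, 18.8 and 13.9 CPM in blank wounds. The pre-MCS-01 values lay below all post-MCS-01 and DSCG values, and overlapped blank through blank replicate 1. Log2 fold changes were -0.95 ± 0.36 against post-MCS-01 (adjusted p = 0.389) and -0.95 ± 0.36 against DSCG (adjusted p = 1.00), so neither passed the edgeR threshold. In post-MCS-01 against DSCG and against blank they were -0.00088 and -0.05, with 95% intervals of -0.78 to 0.78 and -0.84 to 0.74.

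C7 counts per C6 count averaged 0.927 ± 0.268 in pre-MCS-01, 3.59 ± 1.53 in post-MCS-01, 1.76 ± 1.34 in DSCG and 2.55 ± 0.403 in blank wounds (SD, n = 3 each). Both genes are from the same library, so this ratio does not depend on library size, and pre-MCS-01 (0.709 to 1.23) did not overlap post-MCS-01 (1.99 to 5.04) or blank (2.09 to 2.87). It overlapped DSCG, where replicates 1 and 2 had 1.11 and 0.872. The numerator is C7, which chose the set through the pre-MCS-01 libraries, so the ratio carries that choice and is a description. Fibroblast markers, summed, ran from 11869 to 65424 CPM in pre-MCS-01, 19330.2 to 48388 CPM in post-MCS-01, 18143 to 52941 CPM in DSCG and 17051 to 68543 CPM in blank wounds. The collagen genes Col1a1, Col1a2 and Col3a1 made up most of this sum, with means of 15159, 8336 and 9834 CPM. The other fibroblast markers averaged 774 CPM or less, so a value per fibroblast marker count is mainly a value per collagen count. Per 1000 fibroblast marker counts, C7 had 0.328 ± 0.207 in pre-MCS-01, 1.30 ± 0.252 in post-MCS-01, 0.669 ± 0.328 in DSCG and 1.10 ± 0.730 in blank wounds. On this scale pre-MCS-01 (0.116 to 0.531) stayed apart from post-MCS-01 (1.02 to 1.505) and overlapped DSCG (0.327 to 0.980) and blank (0.286 to 1.71). As the numerator is again C7, this too is a description. Adipocyte markers moved with C7 only in part. Non-overlapping, lower values in pre-MCS-01 were found for 6 of 6 against blank (5.96% of all genes), 5 against DSCG (2.59%) and 1 against post-MCS-01 (7.01%). In post-MCS-01 against blank all 6 had negative fold changes (median log2 -1.29), although C7 was highest in post-MCS-01. The adipocyte marker sum was 104.9 to 200.1 CPM in pre-MCS-01, 100.6 to 325.4 CPM in post-MCS-01, 342 to 514.5 CPM in DSCG and 406.1 to 572.6 CPM in blank wounds. Lymphatic endothelial markers summed to 44.5 to 106.5 CPM in pre-MCS-01, 89.1 to 213.3 CPM in post-MCS-01, 77.5 to 85.9 CPM in DSCG and 60.5 to 125.0 CPM in blank wounds, with Ccl21a at 0 in all libraries. Pdpn, with a mean of 59.7 CPM, made up most of this sum. Of the 5 lymphatic markers tested, 5, 4 and 5 were negative in pre-MCS-01 against post-MCS-01, DSCG and blank (median log2 -1.20, -0.65 and -1.18). Against post-MCS-01 edgeR called 1 of the 5 lower, where it called 3 of 16267 genes lower. Blood endothelial markers summed to 54.3 to 229 CPM in pre-MCS-01, 157 to 267 CPM in post-MCS-01, 142 to 286 CPM in DSCG and 117 to 289 CPM in blank wounds. The part of these cell types in the C7 difference was not tested.

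**Figure D1:**
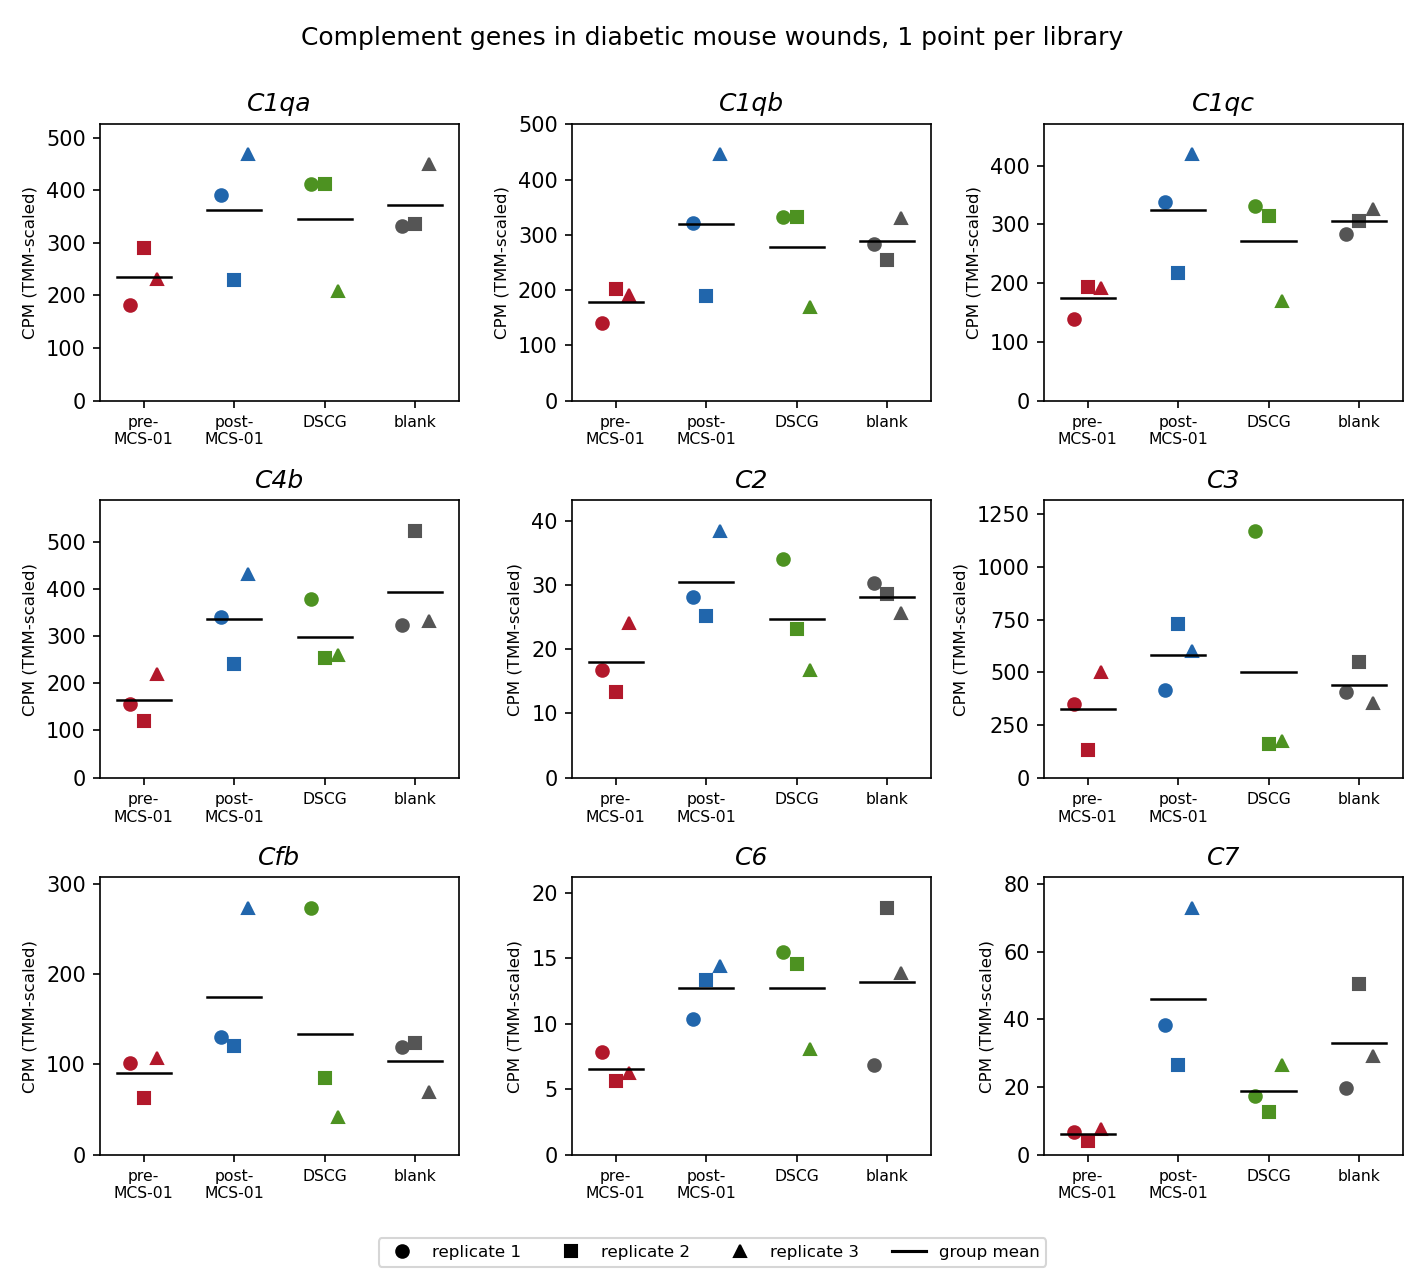
Level of each complement gene in CPM (TMM-scaled, linear axis from 0) in 3 wounds per group, ordered as pre-MCS-01, then post-MCS-01, then DSCG, then blank, with the group mean as a bar. C7 sits at 4.01 to 7.62 CPM in pre-MCS-01 and at 12.7 CPM or more elsewhere, and C3 and Cfb spread most within DSCG.

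The C1q genes encode the 3 chains of C1q, the recognition protein of the classical arm, and stand next to each other on chromosome 4 (C1qa 136895917 to 136898803, C1qb 136880129 to 136886187, C1qc 136889804 to 136893065, all on the minus strand). C1qa had 182, 290 and 231 CPM in pre-MCS-01 wounds, 391, 230 and 469 CPM in post-MCS-01 wounds, 412, 413 and 209 CPM in DSCG wounds and 332, 336 and 451 CPM in blank wounds. C1qb had 140, 203 and 191 CPM in pre-MCS-01 wounds, 322, 190 and 446 CPM in post-MCS-01 wounds, 333, 333 and 170 CPM in DSCG wounds and 283, 255 and 330 CPM in blank wounds. For C1qc the values were 139, 194 and 192 CPM in pre-MCS-01 wounds, 338, 217 and 419 CPM in post-MCS-01 wounds, 331, 315 and 170 CPM in DSCG wounds and 284, 305 and 326 CPM in blank wounds. Each chain was below all 3 blank values in every pre-MCS-01 library, and 1 low library each of post-MCS-01 (replicate 2) and DSCG (replicate 3) reached into or near the pre-MCS-01 range.

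The chains followed one another closely: Pearson's r of log2 CPM was 0.955 to 0.978 for the 3 pairs over 12 libraries, as a description, since the points share library and group. Log2 fold changes of C1qa, C1qb and C1qc in pre-MCS-01 against post-MCS-01 were -0.63, -0.84 and -0.89, each ± 0.30 to 0.33, and none passed (adjusted p = 0.549, 0.411 and 0.310, edgeR). Against DSCG they were -0.56, -0.65 and -0.64, each with an adjusted p of 1.00 by edgeR. In post-MCS-01 against DSCG they were 0.08, 0.20 and 0.26, and in post-MCS-01 against blank -0.04, 0.14 and 0.09 (lowest adjusted p = 0.774, edgeR). Their 95% intervals lay between -0.76 and 0.92.

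Macrophage markers moved the same way as C1q. All 9 markers in the files had negative fold changes in pre-MCS-01 in each of its 3 comparisons (47.5%, 45.4% and 45.9% of all genes against post-MCS-01, DSCG and blank). So did the 6 blood endothelial and the 6 adipocyte markers, so this was not particular to macrophages. Of 8 fibroblast markers, 8, 7 and 8 were negative. The 7 neutrophil markers were all positive against DSCG and blank, and all negative against post-MCS-01 (median log2 -0.51). The 8 hair follicle markers were all positive against post-MCS-01 and blank, and all negative against DSCG (median log2 -0.43). The macrophage marker sum was 252.5 to 467.4 CPM in pre-MCS-01, 576.6 to 978.2 CPM in post-MCS-01, 380.7 to 683.5 CPM in DSCG and 454.6 to 710.3 CPM in blank wounds, with no marker at 0. C1q counts per macrophage marker count averaged 1.86 ± 0.751 in pre-MCS-01, 1.31 ± 0.185 in post-MCS-01, 1.78 ± 0.471 in DSCG and 1.80 ± 0.594 in blank wounds (SD, n = 3 each). On this scale the groups overlapped and pre-MCS-01 was not the lowest: log2 fold changes against post-MCS-01 were 0.58, 0.40 and 0.32 for C1qa, C1qb and C1qc, a denominator chosen after seeing the data. The ratio was highest in the 3 libraries short of long transcripts, at 2.72 in pre-MCS-01 replicate 2, 2.32 in DSCG replicate 2 and 2.44 in blank replicate 3, against 1.10 to 1.69 in the other 9. Fewer macrophages and less C1q RNA per macrophage cannot be told apart in bulk tissue, and the same holds for the other genes here and the cells that make them.

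**Figure D2:**
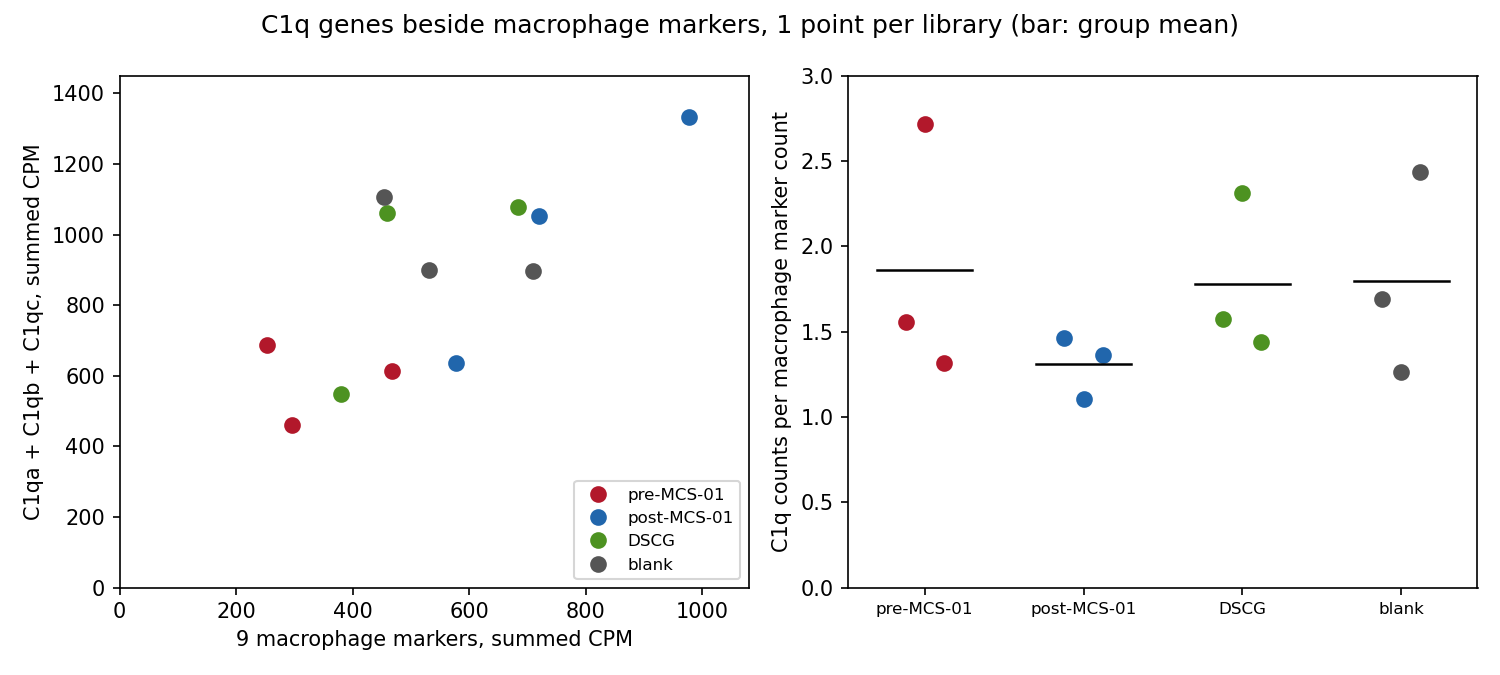
Left, summed CPM of C1qa, C1qb and C1qc against the summed CPM of 9 macrophage markers, 1 point per library; right, the ratio of their counts by group, with the group mean as a bar. The pre-MCS-01 libraries lie low on both axes (460.6 to 686.5 CPM of C1q), and their ratios of 1.31 to 2.72 overlap those of DSCG and blank.

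C4b and C2 supply the classical C3 convertase, the enzyme that cuts C3. C4b (chromosome 17, 34728380 to 34743882, minus strand) had 155, 119 and 219 CPM in pre-MCS-01 wounds, 340, 240 and 431 CPM in post-MCS-01 wounds, 379, 254 and 259 CPM in DSCG wounds and 324, 522 and 333 CPM in blank wounds. As for C7, the pre-MCS-01 libraries were the lowest 3 of 12. The log2 fold change was -1.26 ± 0.31 in pre-MCS-01 against blank (a 2.39-fold lower level), -1.03 ± 0.31 against post-MCS-01 (adjusted p = 0.241, edgeR) and -0.86 ± 0.31 against DSCG (adjusted p = 1.00). It was -0.22 ± 0.31 in post-MCS-01 against blank and 0.18 ± 0.31 in post-MCS-01 against DSCG (adjusted p = 0.938 and 0.850, edgeR). C4b has a near-identical neighbour, C4a, between which counting could split reads, and C4a took 0.0955% to 0.335% of the C4 counts.

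C2, the protease of that enzyme (chromosome 17, 34862604 to 34898265, minus strand), had 16.8, 13.4 and 24.0 CPM in pre-MCS-01 wounds, 28.1, 25.1 and 38.3 CPM in post-MCS-01 wounds, 34.1, 23.1 and 16.7 CPM in DSCG wounds and 30.3, 28.6 and 25.7 CPM in blank wounds. The pre-MCS-01 values lay below all post-MCS-01 and blank values, by small margins, and overlapped the DSCG values. Log2 fold changes in pre-MCS-01 were -0.65 ± 0.29 against blank and -0.76 ± 0.29 against post-MCS-01 (adjusted p = 0.391, edgeR), and in post-MCS-01 they were 0.31 ± 0.29 against DSCG and 0.11 ± 0.29 against blank. C2 and Cfb are neighbours and share 42.8% and 79.5% of their exon bases with Gm20547, another gene model on the same strand in GENCODE M21. Their levels are uncertain to the extent that the authors' counting set shared reads aside.

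C3, on which the pathways converge (chromosome 17, 57203970 to 57228136, minus strand), varied more within groups than between them. It had 348, 129 and 501 CPM in pre-MCS-01 wounds, 416, 731 and 601 CPM in post-MCS-01 wounds, 1170.2, 161 and 173 CPM in DSCG wounds and 407, 551 and 356 CPM in blank wounds. DSCG replicate 1 alone was 7.29-fold above the lowest DSCG library. Log2 fold changes were -0.84 ± 0.70 in pre-MCS-01 against post-MCS-01, 0.22 ± 0.70 in post-MCS-01 against DSCG and 0.41 ± 0.70 in post-MCS-01 against blank (adjusted p = 0.698, 0.926 and 0.959, edgeR). Without DSCG replicate 1 the post-MCS-01 value against DSCG was 1.81 and still missed the threshold (adjusted p = 0.0787, edgeR, with 2 DSCG libraries).

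Cfb encodes factor B, the protease of the alternative C3 convertase (chromosome 17, 34856374 to 34862518, minus strand). Its levels were 102, 63.0 and 107 CPM in pre-MCS-01 wounds, 130, 120 and 273 CPM in post-MCS-01 wounds, 273, 85.3 and 41.3 CPM in DSCG wounds and 119, 124 and 69.2 CPM in blank wounds. As for C3, DSCG replicate 1 was the highest of its group, and log2 CPM of Cfb and C3 correlated at r = 0.815 over 12 libraries, a description with the same shared sources. The pre-MCS-01 values were below all post-MCS-01 values, with a log2 fold change of -0.94 ± 0.58 (adjusted p = 0.617, edgeR). Post-MCS-01 gave 0.39 ± 0.58 against DSCG and 0.74 ± 0.58 against blank (adjusted p = 0.826 and 0.793, edgeR), and 1.46 against DSCG without DSCG replicate 1.

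Per kilobase of exon, levels over the 12 libraries were ordered as follows. C1qa (316 ± 95.9 CPM per kb, SD, n = 12), C1qb (245 ± 83.0 CPM per kb) and C1qc (139 ± 44.0 CPM per kb) were highest. C3 (89.8 ± 56.1), C4b (52.3 ± 20.1) and Cfb (44.4 ± 26.2 CPM per kb) came next, and C7 (9.71 ± 7.51), C2 (6.55 ± 1.89) and C6 (3.18 ± 1.22 CPM per kb) were lowest. Of the neighbours in this order, Cfb and C7 as well as C2 and C6 were separated by more than their spread (mean ± SD); the other neighbours were not. The order of group means differed between groups for 2 pairs. C7 was below C2 in pre-MCS-01 (2.27 ± 0.698 and 4.66 ± 1.40 CPM per kb) and above it in the other groups. This swap carries the choice of the set through C7, and in DSCG and blank the C7 and C2 values overlapped within mean ± SD. C4b was below Cfb in pre-MCS-01 (28.9 ± 8.88 and 32.1 ± 8.49 CPM per kb) and in post-MCS-01 (59.2 ± 16.8 and 61.7 ± 30.3 CPM per kb). It was above Cfb in DSCG (52.2 ± 12.4 and 47.1 ± 43.5 CPM per kb) and blank. In pre-MCS-01, post-MCS-01 and DSCG the C4b and Cfb values overlapped within mean ± SD.

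**Figure D3:**
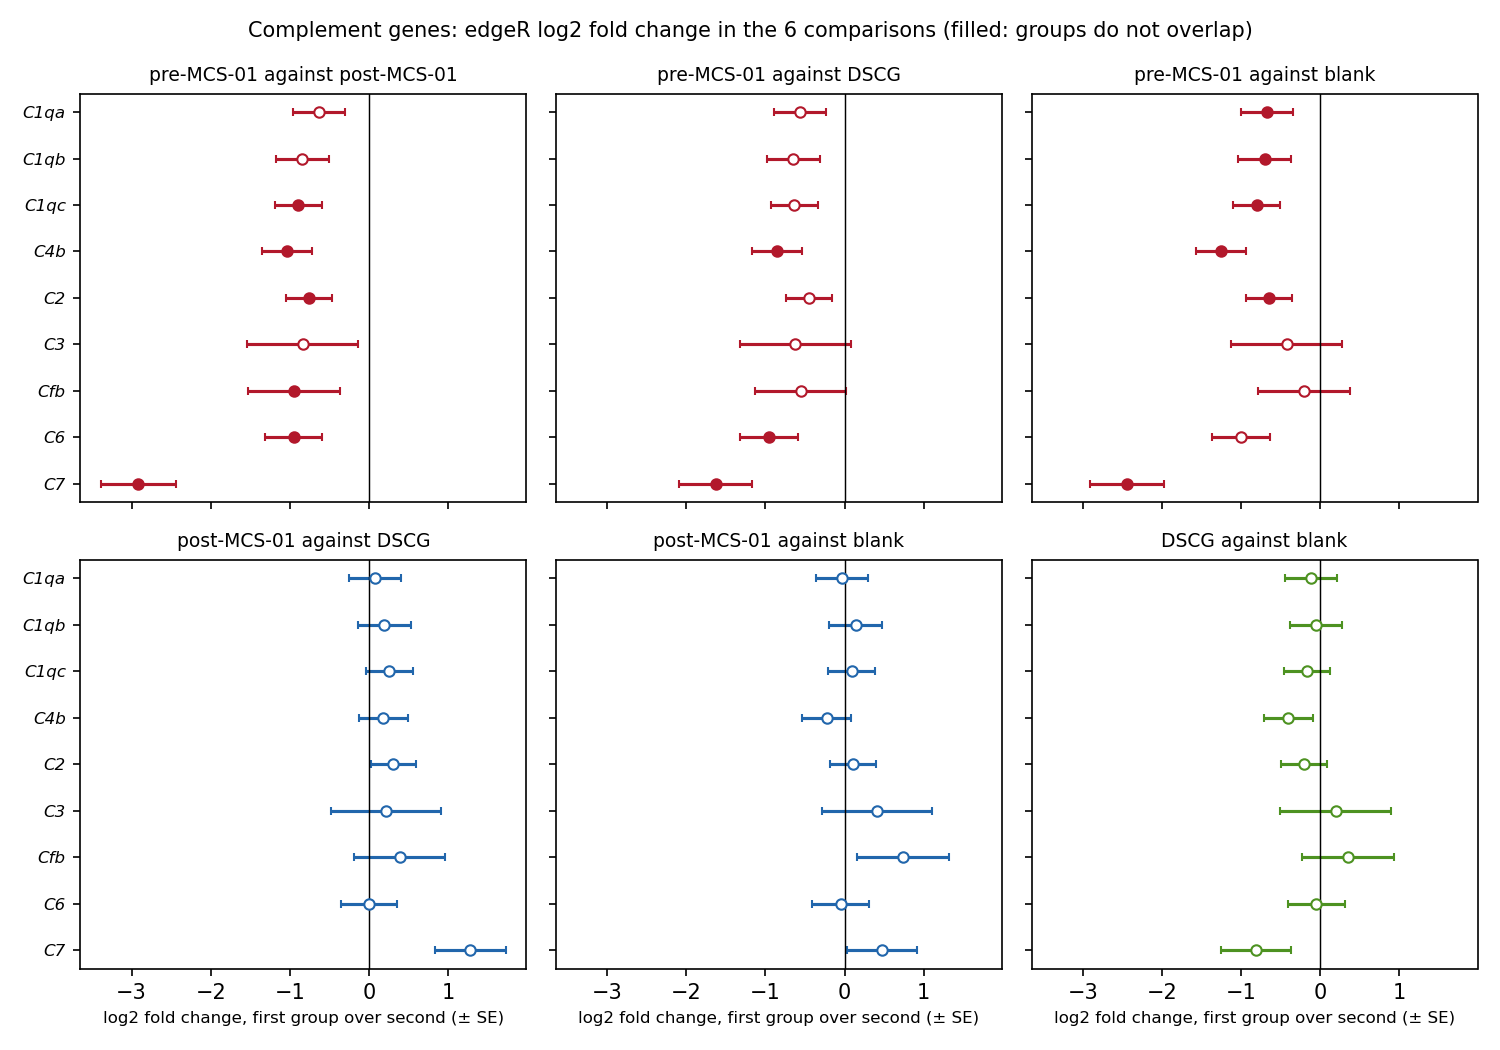
Log2 fold change (± SE, edgeR) of the 9 complement genes in 6 comparisons, first group over second; filled points mark genes whose 3 values per group do not overlap. All 9 points lie below 0 in the 3 pre-MCS-01 panels, which share the pre-MCS-01 libraries, and C7 lies farthest out at -2.91, -1.63 and -2.44.

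Counted together, all 9 genes had their lowest group mean in pre-MCS-01 wounds, against 22.4% of all genes tested, and negative fold changes in pre-MCS-01 against each other group, against 47.5% (post-MCS-01), 45.4% (DSCG) and 45.9% (blank) of all genes. Their median log2 fold change was -0.89 against post-MCS-01, -0.64 against DSCG and -0.70 against blank, where the median of all genes was 0.03, 0.03 and 0.04. Values did not overlap and were lower in pre-MCS-01 for 6 of 9 members against post-MCS-01 (7.01% of all genes did this), 3 of 9 against DSCG (2.59% of all genes) and 6 of 9 against blank (5.96% of all genes). C7 chose the set through these pre-MCS-01 libraries, and without it the counts were 5, 2 and 5 of 8 and the median log2 fold changes -0.87, -0.63 and -0.69. The blank values come from the contrast that chose the set and are printed as a description. In pre-MCS-01 against blank, C3, C6 and Cfb overlapped, with log2 fold changes of -1.002 to -0.20; against DSCG, the 6 overlapping members ran from -0.65 to -0.45.

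Of the 8 members other than C7, 0 passed the edgeR threshold in pre-MCS-01 against post-MCS-01, where 0.824% of all genes passed (134 of 16267). Only 3 of those 134 genes had negative fold changes, as all 8 members did, while 131 had positive ones. In pre-MCS-01 against DSCG 0 of the 8 passed, where 0% of all genes did. At an unadjusted p under 0.05 edgeR counted 5 of the 8 against post-MCS-01 (10.2% of all genes) and 2 of the 8 against DSCG (2.36% of all genes). These counts are a description, since the set was chosen through the pre-MCS-01 libraries. The members are also not independent of one another (C1qb and C1qc, r = 0.978). By DESeq2, C4b passed against post-MCS-01 (adjusted p = 0.0432), where it called 428 genes, and none of the 8 passed against DSCG, where it called 17. Over single omissions of a library the log2 fold change of C7 against post-MCS-01 stayed between -3.26 and -2.45, as a description.

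Between post-MCS-01, DSCG and blank no member passed the threshold or had non-overlapping values. The overlap of C7 between post-MCS-01 and DSCG was narrow, resting on post-MCS-01 replicate 2 (26.59 CPM) and DSCG replicate 3 (26.61 CPM). In post-MCS-01 against DSCG 0 of 9 passed (1.06% of all genes did) and 0 of 9 had non-overlapping values (15.4% of all genes in either direction). In post-MCS-01 against blank 0 of 9 passed (0% of all genes) and 0 of 9 did not overlap (18.4% of all genes), and in DSCG against blank 0 of 9 passed (0% of all genes) and 0 of 9 did not overlap (3.68% of all genes). At an unadjusted p under 0.05 edgeR counted 1, 0 and 0 members in these comparisons, against 11.3%, 9.35% and 1.03% of all genes. DESeq2 called no member, and 620, 409 and 0 of all genes. DSCG against blank gave log2 fold changes of -0.81 to 0.35. A joint edgeR F test of the 4 groups called 0 of the 8 members other than C7 and 0 of 16267 genes, and the smallest adjusted p of the 8 was that of C4b, 0.382. A p that misses the threshold does not show that the groups are alike.

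The other complement genes were 41 listed genes, of which 27 passed the filter on low counts. None passed the edgeR threshold in any of the 6 comparisons. Of the 27, 15 had their lowest group mean in pre-MCS-01 wounds (22.4% of all genes), and 22, 21 and 23 had negative fold changes in pre-MCS-01 against post-MCS-01, DSCG and blank (47.5%, 45.4% and 45.9% of all genes), with medians of -0.32, -0.27 and -0.49. Low, non-overlapping values in pre-MCS-01 were found for 5, 3 and 1 of them (18.5%, 11.1% and 3.70%, against 7.01%, 2.59% and 5.96% of all genes). Against blank, where this was 1 gene of 27, the share was not above that of all genes.

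Among genes that start the classical and lectin arms, 7 of 13 were tested. Colec11, a soluble lectin that recognizes sugars, averaged 1.12 ± 0.572 CPM in pre-MCS-01, 1.25 ± 0.526 CPM in post-MCS-01, 2.47 ± 0.0111 CPM in DSCG and 2.42 ± 0.960 CPM in blank wounds. Fcna, a ficolin made by macrophages, averaged 11.5 ± 3.92, 16.7 ± 1.08, 14.0 ± 7.49 and 18.6 ± 6.65 CPM in the pre-MCS-01, the post-MCS-01, the DSCG and the blank wounds. Masp1, a lectin-arm protease, ran from 1.96 to 30.1 CPM with all groups overlapping. The mannose-binding lectins Mbl1 and Mbl2, known as liver products, had no counts in 12 libraries.

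Cfd encodes factor D, also called adipsin, which activates factor B and is made in quantity by fat cells. It averaged 237 ± 188 CPM in pre-MCS-01, 246 ± 132 CPM in post-MCS-01, 466 ± 118 CPM in DSCG and 663 ± 278 CPM in blank wounds. Its log2 fold change was -1.48 ± 0.66 in pre-MCS-01 against blank and -1.43 ± 0.66 in post-MCS-01 against blank, and it passed in neither (adjusted p = 0.687 and 0.538, edgeR). The summed adipocyte markers given above were lower in the same groups, and the part of fat cells in the Cfd values was not tested. Cfp, which encodes properdin, the stabilizer of the alternative convertase, averaged 43.0 ± 4.40 CPM in pre-MCS-01, 75.7 ± 31.7 CPM in post-MCS-01, 65.3 ± 31.8 CPM in DSCG and 58.8 ± 18.0 CPM in blank wounds.

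Terminal genes other than C6 and C7 were scarce. Hc, which encodes C5, averaged 0.737 to 1.60 CPM by group, and C8a and C8b had 1 count each over all libraries.

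Of the soluble regulators, Vtn, which encodes vitronectin, a blocker of the terminal complex, had 2.46, 2.02 and 2.21 CPM in pre-MCS-01 wounds, 3.43, 3.24 and 5.23 CPM in post-MCS-01 wounds, 7.32, 8.81 and 3.77 CPM in DSCG wounds and 5.49, 5.57 and 3.14 CPM in blank wounds. The pre-MCS-01 libraries lay below the other 9. Log2 fold changes were -0.83 ± 0.35 against post-MCS-01, -1.57 ± 0.36 against DSCG and -1.13 ± 0.36 against blank (adjusted p = 0.450, 1.00 and 0.617, edgeR). Clu, which encodes clusterin, another blocker of the terminal complex, was lowest in post-MCS-01, at 107 ± 25.4 CPM, against 259 ± 94.8 CPM in DSCG and 191 ± 44.7 CPM in blank wounds, with log2 fold changes of -1.27 ± 0.32 and -0.83 ± 0.32 (adjusted p = 0.108 and 0.417, edgeR). Clu averaged 178 ± 46.2 CPM in pre-MCS-01 wounds. Serping1, which encodes the C1 inhibitor, averaged 217 ± 70.3 CPM in pre-MCS-01, 359 ± 125 CPM in post-MCS-01, 301 ± 95.4 CPM in DSCG and 382 ± 74.1 CPM in blank wounds.

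The membrane regulators Cd55, Cd59a and Cr1l, which protect a cell's own surface, had log2 fold changes of -0.64 to 0.07 in the pre-MCS-01 comparisons. The 7 complement receptors tested, which are found on leukocytes, had negative fold changes in pre-MCS-01 against post-MCS-01 (median log2 -0.91), and in post-MCS-01 7 were positive against DSCG (median 0.65) and 6 against blank (median 0.52). Itgax, the alpha chain of complement receptor 4, had 12.5, 7.33 and 17.1 CPM in pre-MCS-01 wounds and 39.7, 18.8 and 24.6 CPM in post-MCS-01 wounds, with a log2 fold change of -1.17 ± 0.34 (adjusted p = 0.207, edgeR). Itgam averaged 44.3 ± 24.5 CPM in pre-MCS-01 wounds against 82.9 ± 25.9 CPM in post-MCS-01 wounds, and Itgb2, the shared beta chain, averaged 55.9 ± 26.2 and 105 ± 19.5 CPM in pre-MCS-01 and post-MCS-01 wounds. Neutrophils carry these receptors too, and the summed neutrophil markers were 3972 to 6396 CPM in pre-MCS-01, 4431 to 9985 CPM in post-MCS-01, 28.9 to 3650.2 CPM in DSCG and 485 to 879 CPM in blank wounds. S100a8 and S100a9 made up most of this sum, with means of 1131 and 2236 CPM over 12 libraries. The other neutrophil markers averaged 37.0 CPM or less, so the sum mainly follows S100a8 and S100a9. The part of neutrophils in the receptor values was not tested.

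**Figure D4:**
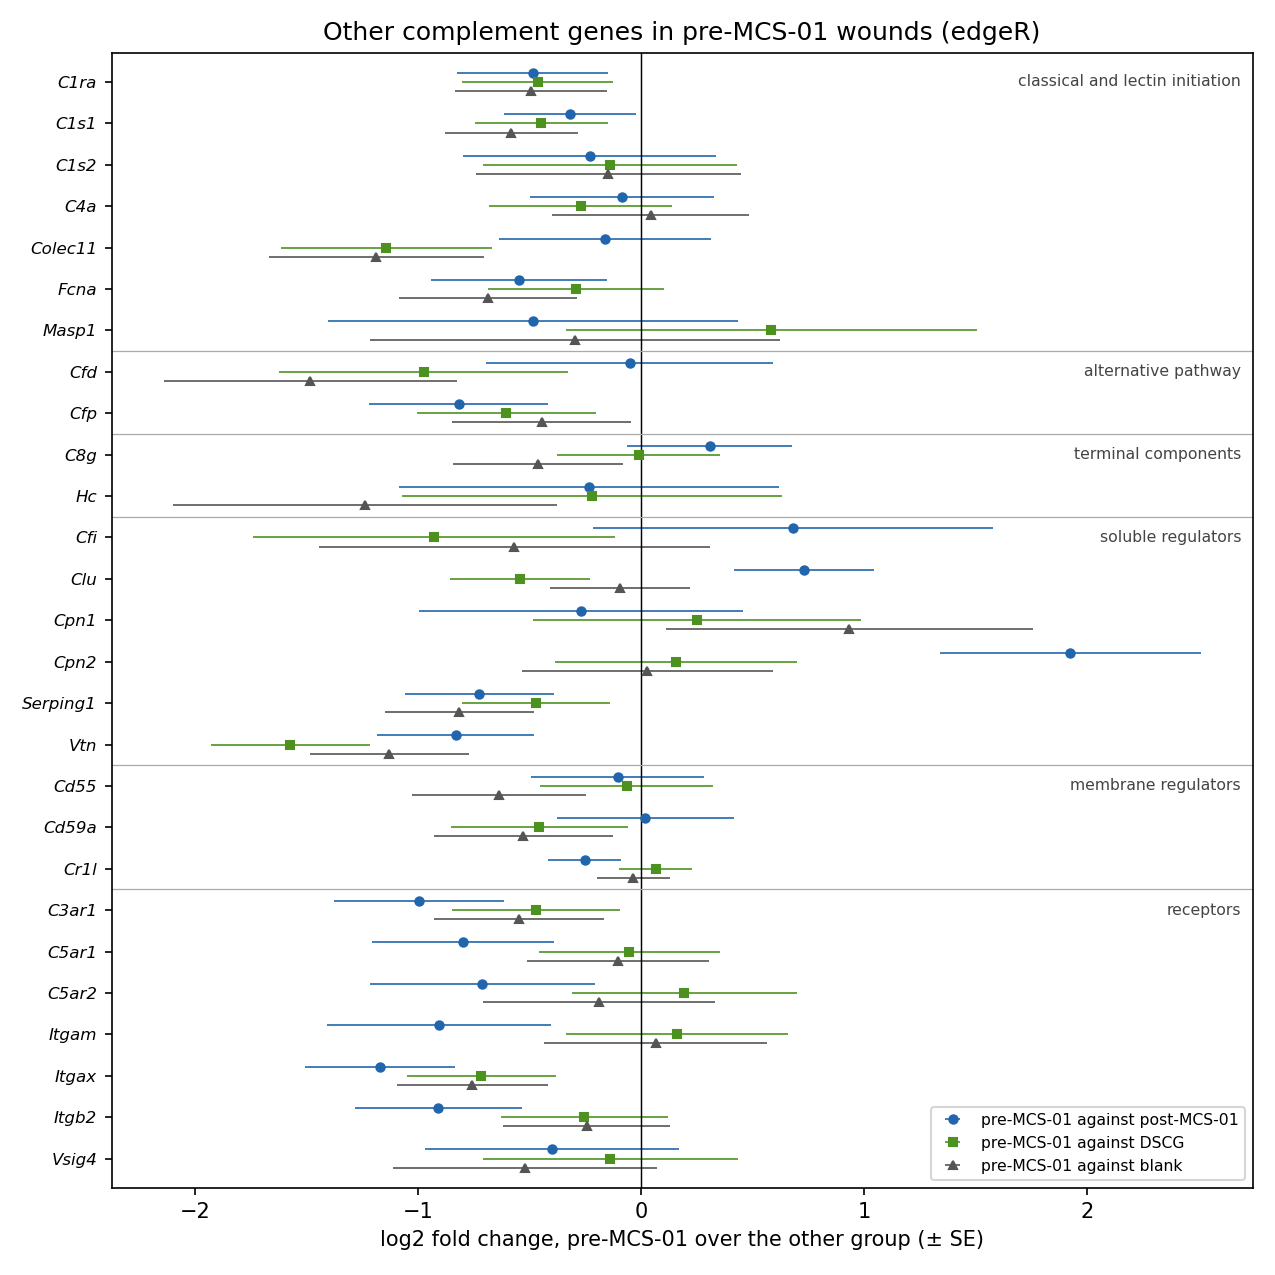
Log2 fold change (± SE, edgeR) in pre-MCS-01 over post-MCS-01 (circles), DSCG (squares) and blank (triangles) for the 27 other complement genes tested, grouped by role. Most points lie left of 0 and none passed the threshold; Vtn is at -0.83, -1.57 and -1.13.

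By Pearson's r of log2 CPM over the 12 libraries, the genes most like C7 among 14128 compared were Wipf3 (0.935), Lmod2 (0.926), Cdh4 (0.915), Kcna6 (0.897) and Adcyap1r1 (0.896). Those most like C1qb were Ftl1 (0.968), Tbxas1 (0.947), Ms4a7 (0.945), Nr1d1 (0.944) and Bin1 (0.938), of which Ms4a7 is on the macrophage marker list. Among the members, C7 was most like C4b (r = 0.883), while C6 and C7 had r = 0.687 and C3 was least like C1qa (r = 0.191). These are descriptions over libraries that share groups, and no p is attached.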

How the data were processed

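RNA was extracted from wounds with a miRNeasy kit and sequenced from Illumina TruSeq libraries, per the labels' protocols. The deposited files hold the authors' raw read counts per gene symbol (24062 genes and 5 summary lines per library). Per the submitters' processing notes, the tools were HTSeq, TopHat2, Bowtie2, FastQC and limma, and the build mm10; versions, annotation and strand setting are not given in the sources used here. Reads matching more than 1 place (17.2% to 23.4% of all entries) were in a summary line and stayed out, so recent duplicates are undercounted.

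The members and lists were chosen with earlier results of these data known. Libraries were grouped by treatment label. Genes were filtered with filterByExpr (16267 kept), scaled with TMM (0.905 to 1.07) and tested with edgeR 4.0.16 (glmQLFit, glmQLFTest, R 4.3.3), one model of 12 libraries with a mean per group, two-sided, Benjamini-Hochberg over all genes, threshold 0.05; the biological coefficient of variation was 0.347. An adjusted p is from this model unless another tool is named. CPM are TMM-scaled with no prior count; log2 CPM used a prior count of 2. A count of 3 corresponded to 0.0588 to 0.786 CPM. With 3 against 3, an exact permutation test cannot go below 0.1, so the model was used. Alternatives used limma 3.58.1 and DESeq2 1.42.0, other scaling, no filter, an exon-length covariate and omitted libraries. The scripts were tested on simulated data. Exon lengths and positions are from GENCODE M21 (GRCm38), and 95.4% of tested genes had a length. All 9 members were named, and their fold changes printed in full for post-MCS-01 against blank and DSCG and pre-MCS-01 against post-MCS-01, elsewhere for members that did not overlap. Other complement genes were named by up to 3 per list with the largest range of group means and at least 1 CPM; Mbl1, Mbl2, C8a, C8b, Fgb and Ccl21a were named after their counts were seen. 1 listed gene is not reported here and stays out of the counts over other complement genes. The lists are macrophage, neutrophil, fibroblast, hepatocyte, lymphatic and blood endothelium, epidermal keratinocyte, hair follicle, mast cell, adipocyte and skeletal muscle.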

Additional observations from a re-analysis of the deposited data

How the results depend on the processing

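No paired analysis was possible because the labels number the mice singly and give no number shared between groups. Of 448 alternative fold changes of members with a test, 411 kept their direction and their side of the threshold. Of 149 with no test, 131 kept their direction and moved by less than the spread between replicates. C7 is left out of the counts of calls that involve pre-MCS-01, and no member calls are counted in pre-MCS-01 against blank. Members called in pre-MCS-01 against post-MCS-01 and in the joint test (0 of 8 by edgeR) came to 1 with DESeq2 and 5 with limma-voom with library quality weights. The cause was not tested, but the quality weights also called 3818 of all genes in pre-MCS-01 against post-MCS-01 and 2485 in pre-MCS-01 against blank, where edgeR called 134 and 0. In the joint test, calls over all genes were not counted for DESeq2 or the quality weights. The 1 and 5 members called there therefore have no background share beside them.

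Among all genes, pre-MCS-01 against post-MCS-01 gave 428 calls with DESeq2 and 0 to 131 on leaving out 1 library. Post-MCS-01 against DSCG (172) gave 620 with DESeq2 and 0 to 606. Post-MCS-01 against blank (0) gave up to 827, pre-MCS-01 against DSCG (0) up to 17, and pre-MCS-01 against blank (0) gave 69 with DESeq2.

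Over summed macrophage markers, an alternative chosen after seeing the data, the C1q fold changes changed sign: in pre-MCS-01 against post-MCS-01 to 0.58, 0.40 and 0.32 (C1qa, C1qb, C1qc); in pre-MCS-01 against blank to 0.085 and 0.052 (C1qa, C1qb); in post-MCS-01 against DSCG to -0.51, -0.41 and -0.32; in post-MCS-01 against blank to -0.35 and -0.37 (C1qb, C1qc). The denominator is lowest in pre-MCS-01 and highest in post-MCS-01. C6 in post-MCS-01 against blank was 0.17 over fibroblast markers, also chosen after seeing the data.

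In post-MCS-01 against DSCG, C6 was 0.10 without the 3 libraries, 0.039 with the covariate, 0.054 with limma-voom, 0.018 with no filter and 0.061 with total counts, and C3 was -0.22 without the 3 libraries. In post-MCS-01 against blank, C6 was 0.11 with limma-voom and 0.042 with quality weights, and C1qa was 0.13 without the 3 libraries and 0.16 with quality weights. Leaving out 1 library, post-MCS-01 against blank ran from -0.27 to 0.23 (C1qa), -0.18 to 0.43 (C1qb), -0.14 to 0.34 (C1qc), -0.44 to 0.046 (C4b), -0.093 to 0.26 (C2), -0.37 to 0.34 (C6) and -0.030 to 0.94 (C7); post-MCS-01 against DSCG ran from -0.17 to 0.35 (C1qa), -0.12 to 0.49 (C1qb), -0.039 to 0.40 (C4b), -0.21 to 1.81 (C3), -0.11 to 1.46 (Cfb) and -0.24 to 0.17 (C6). Blank replicate 3, with 3835042 counts, gives the least precise values.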
